A study of Mus musculus with 18 samples.

Results

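The mRNAs of the cytosolic ribosomal proteins were examined in the prostates of Elac2 mutant mice. Members were the protein-coding genes whose symbol is Rpl or Rps followed by a digit, together with Rplp0, Rplp1, Rplp2 and Rpsa, without pseudogene entries and without the kinase and binding protein genes that share the Rps6k and Rps19bp prefixes. This gave 85 of the 55469 genes in the tables, of which 52 encode proteins of the large (60S) subunit and 33 proteins of the small (40S) subunit. Of these, 77 are core members and 8 are copies of another member: Rpl3l, Rpl22l1, Rpl36al, Rpl7l1, Rpl39l, Rpl10l, Rps27l and Rps27rt.

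The ribosome is built from a small subunit, which reads the mRNA, and a large subunit, which forms the peptide bond. Apart from the acidic stalk proteins, the core proteins are used in equal numbers, and cells make the mRNAs of all core members at high and roughly balanced levels. These mRNAs are short, start with an oligopyrimidine tract (the TOP motif) and are translated under the control of mTOR signalling, which acts through LARP1 and the 4E-BPs. Secretory tissues such as the prostate depend on a large ribosome pool. ELAC2 is the RNase Z that trims the 3′ ends of nuclear and mitochondrial tRNAs. Cytosolic ribosomes use the nuclear-encoded tRNAs, while the mitochondrial tRNAs serve translation inside mitochondria.

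RNA sequencing was carried out on total RNA of male C56NL/6N mice, taken from both the ventral and the lateral lobes of the prostate, with 3 libraries in each of 6 groups. The WT mice (ELAC2+/+) were matched to the mutants by age and litter. KO mice lack exon 8 of Elac2 in the prostate, where the probasin promoter drives Cre (Pb-Cre), so other cell types in the lobes keep the gene. A537T mice are homozygous for an alanine to threonine change that was made by CRISPR-Cas9 in the whole body. All 3 genotypes were sampled at 10 and at 30 weeks of age. Libraries are named as in the tables, and values of a group are given in the order of these names. At 10 weeks WT was sequenced as 10AF, 11AF and 12AF, KO as 13AF, 14AF and 15AF, and A537T as 16AF, 17AF and 18AF. At 30 weeks the names were 1AF, 2AF and 3AF in WT, 4AF, 5AF and 6AF in KO, and 7AF, 8AF and 9AF in A537T. The WT libraries of an age serve both mutant lines, so the comparisons of an age share their controls.

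Libraries held 6569642 to 11225281 reads. Levels are normalized counts, which are gene counts divided by the size factor of the library, as deposited. Elac2 itself was counted in every library, at 111 to 119 normalized counts in KO and 124 to 166 in WT at 10 weeks, and at 98.4 to 151 against 150 to 194 at 30 weeks. A count per gene holds no information on whether exon 8 was present. All 10 markers of prostate epithelium were counted in every library, but the share of counts on them was 0.519% in 15AF and at least 2.62% in the other libraries. Several libraries held RNA of other tissues. The share of 8 seminal vesicle genes among the 10-week WT libraries was 4.64% in 10AF, 1.76% in 11AF and 0.00081% in 12AF. The KO libraries of that age had 6.55 to 10.3% and the A537T libraries 0.037 to 0.191%. Among the libraries of 30 weeks the share was 8.53% in 4AF, 6.32% in 6AF, 7.24% in 7AF and 9.17% in 9AF, which are all mutant, while 5AF, 8AF and WT had at most 0.00034%. The share of 34 skeletal muscle genes was 4.09 to 13.2% in the 10-week WT libraries, 0.060 to 2.14% in their KO and 1.61 to 4.52% in their A537T counterparts, and at most 0.0755% at the later age.

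The start of the genes is shown first, because the TOP motif is the feature that these mRNAs share. Promoter sequences of RefSeq (GRCm38.p6), from 250 bases before to 50 bases after the start site, were found for 65 of the 85 members. The windows below run from 10 bases before to 20 bases after the start, with the longest unbroken run of C and T in capitals. They belong to the kinase substrate Rps6, to members described below for their values (Rps27, Rpl28 and Rplp2) and to the copies Rps27l, Rpl22l1 and Rpl3l.
Rps6, chr4:86857348-86857377, minus strand: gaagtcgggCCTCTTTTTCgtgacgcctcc
Rps27, chr3:90213629-90213658, minus strand: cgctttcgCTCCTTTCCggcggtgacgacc
Rpl28, chr7:4792955-4792984, plus strand: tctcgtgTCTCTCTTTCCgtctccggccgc
Rplp2, chr7:141447641-141447670, plus strand: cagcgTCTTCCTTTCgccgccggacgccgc
Rps27l, chr9:66946076-66946105, plus strand: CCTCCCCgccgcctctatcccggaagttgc
Rpl22l1, chr3:28805498-28805527, plus strand: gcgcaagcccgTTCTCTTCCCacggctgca
Rpl3l, chr17:24727816-24727845, plus strand: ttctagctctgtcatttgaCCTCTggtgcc

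The longest run of pyrimidines was 10 bases in Rps6, 9 in Rps27, 11 in Rpl28 and 10 in Rplp2. In the copies it was 7 bases in Rps27l, 10 in Rpl22l1 and 5 in Rpl3l. The run of Rps27l lies wholly before the annotated start and that of Rpl3l well after it, so neither marks a TOP motif at that start. Over all 65 members the median run, searched in a wider window than the one printed, was 7 bases, against 5 in 16448 other protein-coding genes. The letters CTTTCC on the transcribed strand occurred within 50 bases of the start in 19 of the 65 members (29.2%) and in 4.23% of the other genes. The longer CTCTTTCC, which contains CTTTCC, occurred in 6 members (9.23%) and in 0.401% of the others. The letters CCGGAAG, the core that ETS factors such as GABP bind, occurred on either strand of the whole window in 25 members (38.5%) and in 12.2% of the others. The TATA box letters TATAAA on the transcribed strand were found in 6 members (9.23%) and in 8.63% of the others, so that members and other genes held them at a like share. These are matches of letters and not measured binding.

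The members lie on 19 chromosomes, with 14 on chromosome 7 and 4 on X, and have a median of 5 exons. Their principal transcripts have a median length of 681 bases, with a range of 271 to 3706, against 2262 in other protein-coding genes. The copy Rps27rt (chromosome 9, 114982366 to 114982739, minus strand, GRCm38) shows how close such copies can be to their parent. The first 90 coding bases of Rps27 (chromosome 3, 90212522 to 90213651, minus strand), Rps27rt and Rps27l (chromosome 9, 66946086 to 66949516, plus strand) are printed with bases that differ from Rps27 in capitals, since reads can be assigned to a copy only where it differs.
Rps27: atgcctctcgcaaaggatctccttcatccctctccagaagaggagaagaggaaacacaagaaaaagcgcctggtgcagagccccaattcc
Rps27rt: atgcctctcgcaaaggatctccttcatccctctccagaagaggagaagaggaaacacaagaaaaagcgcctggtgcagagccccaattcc
Rps27l: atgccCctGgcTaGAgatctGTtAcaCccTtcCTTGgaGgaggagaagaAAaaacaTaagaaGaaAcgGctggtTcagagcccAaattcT

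Rps27rt was identical to Rps27 over all 255 coding bases, and 89.8% of the 50-base windows of the copy also occur in its parent. Most reads of Rps27rt therefore cannot be told apart from reads of Rps27, and its counts are uncertain. Rps27l differed from Rps27 at 61 of the 255 coding bases, 24 of them in the stretch shown, and shared 0% of its 50-base windows. The coding sequences of Rpl36al, Rpl3l and Rpl22l1 were 87.9%, 73.3% and 67.5% identical to those of Rpl36a, Rpl3 and Rpl22, again with 0% of windows shared. Counts of these 4 copies and their parents are therefore separable in principle.

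Levels were compared between members per length, as RPKM, which scales the counts to the kilobases of the principal transcript and to the library total. Rpl10, which joins the large subunit late in its assembly, had the highest level at 899.5 ± 193 (SD over the 18 libraries). It was followed by the small-subunit proteins Rps28 (710.5 ± 136), Rps29 (630.0 ± 93.4), Rps27 (623 ± 124) and Rps12 (622 ± 80.4), with the stalk protein Rplp1 (650 ± 124) between the first and the second of them. The SDs of the members from Rps28 to Rps12 are larger than the gaps between them. These SDs give the spread between libraries, and the order of these members within libraries was not tested. The core median was 310.6, and the core member at the 90th percentile lay 2.79-fold above that at the 10th. The lowest core member was Rps20 at 34.3 ± 4.72, for which the principal transcript has 3706 bases, and its neighbours upward were Rps16 (126.5 ± 18.4) and Rps3 (147 ± 19.8). The principal transcripts of Rps16 and Rps3 have 1109 and 1908 bases. By share of counts, without regard to length, Rps20, Rps16 and Rps3 ranked 68, 66 and 29 among the members. For 13 core members another principal transcript of the same rank is over 1.5 times longer, and their level per length depends on that choice.

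Among the copies, Rpl36al had a level of 283 ± 26.1, above its parent Rpl36a at 219 ± 33.6. Rps27l reached 102 ± 26.1, Rpl22l1 34.6 ± 8.11 and Rpl7l1 31.0 ± 4.01. Rps27rt was counted at 7.43 ± 2.45, with 14 to 63 reads per library. Rpl3l, the counterpart of Rpl3 that striated muscle uses, had a mean of 7.48 with an SD of 12.99, since it was counted at 74 to 697 reads in the WT and A537T libraries at 10 weeks and at 0 to 5 reads in every library at 30 weeks. The copies known from the testis were at or near 0: Rpl39l had 1 read in 13AF and 0 in the other 17 libraries, and Rpl10l had 0 reads in all 18. A count of 0 allows up to 3 reads per library.

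**Figure D1:**
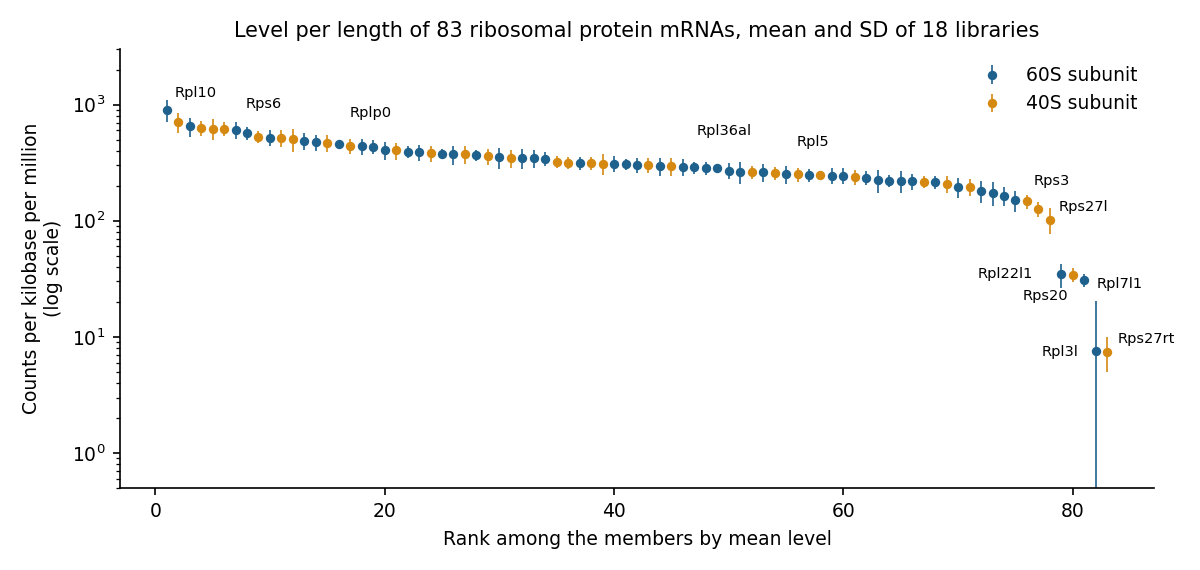
Level of 83 members per length (RPKM, log scale) against their rank, as the mean and SD of 18 libraries, coloured by subunit. Most core members lie within a narrow band around 310.6, while Rps27l, Rpl22l1, Rps20, Rpl7l1, Rpl3l and Rps27rt lie below it, and the SD of Rpl3l exceeds its mean.

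All members together took 1.63 to 2.65% of the counts of a library, a 1.63-fold range. In the WT libraries at 10 weeks the share was 1.70% in 10AF, 2.22% in 11AF and 2.02% in 12AF. The KO libraries lay close together at 1.85%, 1.81% and 1.84%, inside the range of the WT libraries. In A537T it was 1.89% in 16AF, 1.93% in 17AF and 2.30% in 18AF. Thus the spread between WT libraries at this age was larger than the distance between the group means of 1.98 ± 0.264% in WT, 1.83 ± 0.0239% in KO and 2.04 ± 0.228% in A537T (SD, n = 3, WT as tabled with KO). As tabled with A537T, the same WT libraries had a mean of 1.94 ± 0.259%. The counts recovered for these WT libraries were not the same both times, with a median difference of 2.07 to 2.20% over the members.

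At 30 weeks the WT libraries held 2.27%, 1.93% and 2.15%. KO held 1.77% in 4AF, 2.65% in 5AF and 1.92% in 6AF. A537T held 1.89% in 7AF, 2.43% in 8AF and 1.63% in 9AF. In both lines the single library without seminal vesicle RNA lay above all WT libraries, and the libraries with it lay below the WT mean of 2.12 ± 0.173%. The prostate epithelium share was 14.3% in 5AF and 14.9% in 8AF, 4.52 to 7.39% in the 4 libraries with seminal vesicle RNA and 7.67 to 14.9% in WT, and its part in these values was not tested. Over all ages and genotypes, the 9 libraries with over 1% of counts on seminal vesicle genes had shares of 1.63 to 2.22% (median 1.84%), and the other 9 had 1.89 to 2.65% (median 2.15%). The balance of the subunits varied less, with 1.51 to 1.65 counts on 60S core members per count on 40S core members. In bulk tissue, fewer cells of a type and less RNA per cell cannot be told apart.

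**Figure D2:**
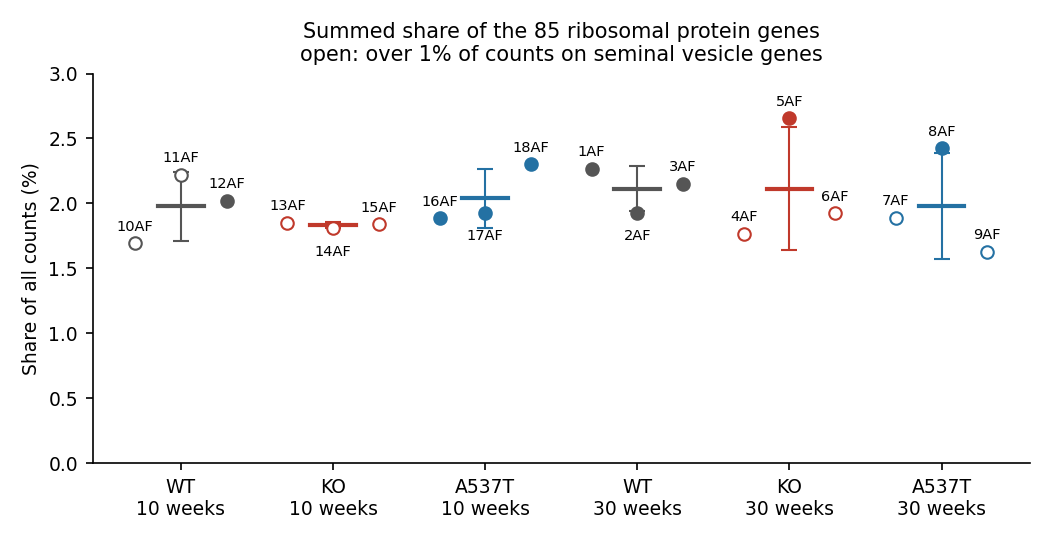
Share of all counts (%) on the 85 members in each library, with the group mean and SD (n = 3) as bars. Open symbols mark libraries with over 1% of counts on seminal vesicle genes, and at 30 weeks the libraries 5AF and 8AF, without such RNA, lie above the 3 WT libraries.

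Core members moved together between libraries. For each library, the difference of every core member from its WT mean was taken on the log2 scale of normalized counts. The median difference was -0.39 in 10AF, 0.11 in 11AF and 0.27 in 12AF, so that 10AF lay far below the other WT libraries. The KO libraries at this age lay at -0.37, -0.29 and -0.35, between 10AF and the other WT libraries. Other protein-coding mRNAs of at most 1000 bases had medians of -0.28, -0.016 and 0.28 in these WT libraries and of -0.35, -0.29 and -0.36 in KO, close to those of the core members. The median over all genes stayed within 0.016 of 0 in every library.

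In A537T at 10 weeks the core medians were -0.12, -0.11 and 0.0039. At 30 weeks the WT libraries lay between -0.085 and 0.098. The KO libraries lay at -0.16, 0.22 and -0.034, with 5AF the highest, and the A537T libraries at -0.19, 0.11 and -0.29, with 8AF the highest. The other short mRNAs were at -0.031 in 7AF, -0.014 in 8AF and 0.0048 in 9AF. The core members thus lay below them in 7AF and 9AF and above them in 8AF. The sets are not of like length, since 16 of the 77 core members have principal transcripts of over 1000 bases.

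**Figure D3:**
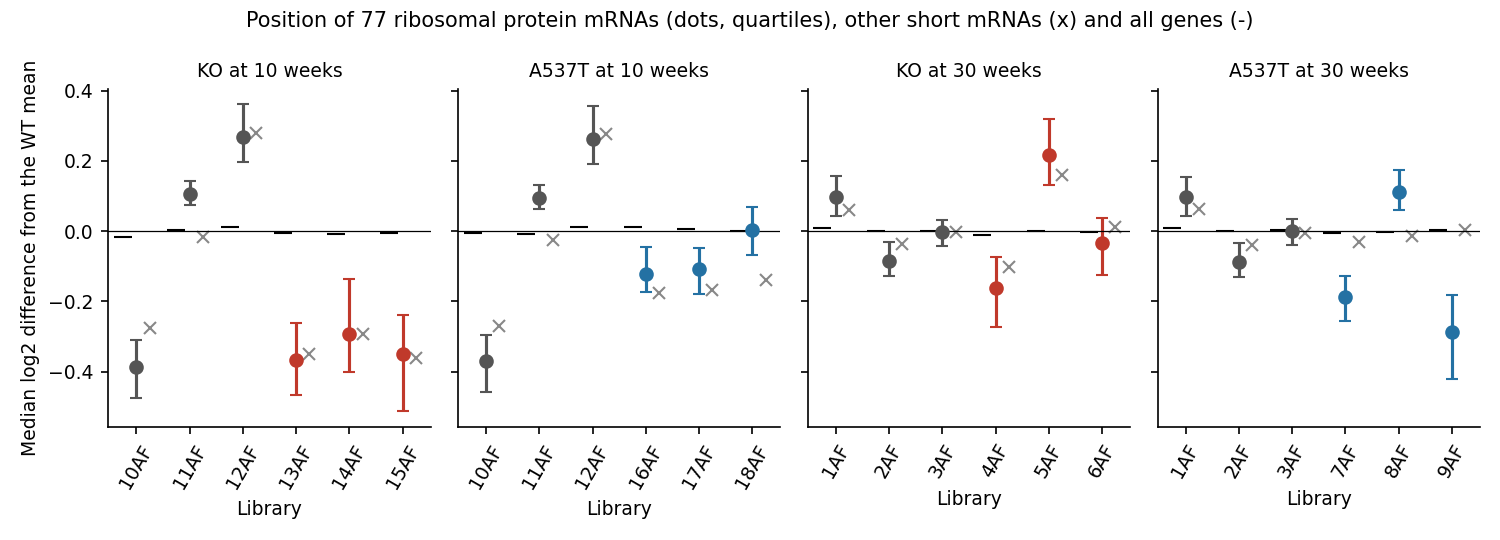
Median difference of the 77 core members from the WT mean (log2 scale of normalized counts) in each library, with quartiles as bars, one panel for each comparison. Crosses give other short mRNAs and dashes all genes, and 10AF, a WT library at -0.39, lies level with the KO libraries at 10 weeks.

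Each mutant line was compared with the WT mice of its age to ask whether the ribosomal protein mRNAs differ. The test was limma on log2 of normalized counts plus 1, which is the scale of every log2 fold change here (mutant against WT), with p-values adjusted over all genes tested. In KO at 10 weeks, limma called 0 of the 83 tested members at an adjusted p under 0.05, as it called 0% of the 15089 genes tested. edgeR and DESeq2 on the recovered reads also called 0 members, while DESeq2 called 4.74% of all genes. At an unadjusted p under 0.05, limma gave 13 members lower (15.7%, against 11.5% of all genes) and 0 higher (against 7.97%). With edgeR 16 members were lower and 0 higher, against 1805 of the 15089 genes lower and 1001 higher. With DESeq2 27 members were lower and 0 higher, against 1725 genes lower and 1052 higher. These counts depended on the scaling. After scaling to the same total, limma gave 1 member lower and 2 higher, where all genes turned to 1050 lower and 1915 higher. After quantile normalization it gave 7 members lower and 2 higher, against 1439 genes lower and 1628 higher. Without the mean trend 1 member was lower, against 1574 genes lower and 1096 higher. The 13 were Rpl3l, Rps27l, Rpl27, Rpl31, Rpl35, Rpl35a, Rpl37a, Rpl38, Rpl41, Rplp1, Rps18, Rps25 and Rps29. The median log2 fold change of the members was -0.33, with 77 of 83 lower than in WT, against -0.0061 over all genes, of which 50.6% were lower. It was -0.32 in the 448 other short mRNAs, 342 of which were lower.

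The core members lay closer together than all genes. The log2 fold changes had an SD of 0.19 over the core members, 0.64 over all 83 tested members with Rpl3l and Rps27l among them, and 0.93 over all genes. The core members had medians of -0.34 in the 60S and -0.32 in the 40S subunit. Groups did not overlap in 9 members that were lower (10.8%, against 14.3% of all genes), among them Rpl3l, Rpl7l1, Rpl11, Rpl31, Rpl41, Rps25, Rps26 and Rps29. They did not overlap in 1 member that was higher (1.20%, against 11.7%), the 40S protein Rps16. Rps16 was at 1220, 994 and 905 normalized counts in WT and at 1220, 1255 and 1326 in KO, a log2 fold change of 0.30 (SE 0.14, adjusted p = 0.294), with 10AF and 13AF nearly equal. Rpl27a at 0.16 and Rplp2 at 0.13 were the next highest.

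Among the lowest members, Rpl27 of the large subunit was at 671, 1085 and 1368 in WT and 633, 673 and 629 in KO, a log2 fold change of -0.63 (SE 0.25, adjusted p = 0.242). Here 10AF lay inside the KO range and the other WT libraries well above it. Rps27l, a p53 target, was at 294, 611 and 778 in WT and 309, 268 and 264 in KO, a log2 fold change of -0.89 (SE 0.34, adjusted p = 0.234). It showed the same arrangement, with the groups overlapping through 10AF. Rpl3l was at 163, 294 and 711 in WT and at 0.859, 85.5 and 0 in KO, a log2 fold change of -5.90 (SE 1.62, adjusted p = 0.183) that was -4.15 with a pseudocount of 8 and -3.79 in edgeR. Its recovered reads were 167, 353 and 697 in WT against 1, 73 and 0, and the skeletal muscle share was 4.09%, 6.82% and 13.2% in the same WT libraries and 0.0652%, 2.14% and 0.0601% in KO. With the muscle score as covariate its log2 fold change was -0.18.

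The result depended on 1 WT library. Without 10AF limma called 2840 of the 15089 genes, 50 of them members, 49 lower and Rps16 higher, with a member median of -0.53. Without 14AF it called 185 of the 15089 genes, of which 1 was a member, Rpl3l. Without 12AF the median was -0.20, and with the skeletal muscle score as covariate -0.14. Scaled to the same total counts, the median of all genes moved to 0.20 and that of the members to -0.12, which leaves the members 0.32 below the other genes, and 63 of 83 were then lower. After quantile normalization the median was -0.15, with 64 lower. The seminal vesicle share was higher in all 3 KO libraries than in the WT libraries at this age. The prostate epithelium share was 3.72%, 12.6% and 13.4% in WT, lowest in 10AF, and 3.90%, 2.62% and 0.519% in KO. The part of both shares in the difference was not tested.

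In A537T at 10 weeks limma called 0 of the 83 tested members, against 0% of 15131 genes, and edgeR and DESeq2 called 0 members, with 0.595% of all genes called by DESeq2. At an unadjusted p under 0.05, 1 member was lower (1.20%, against 3.67% of all genes) and 0 were higher (against 2.76%) by limma. At that p edgeR and DESeq2 each gave 1 member, among 1100 and 1128 of the 15131 genes. The median was -0.080, with 70 of 83 members lower, against 0.011 over all genes and -0.17 in the other short mRNAs, but scaled to the same total it was 0.059, where all genes had 0.15, and after quantile normalization -0.0036. Groups overlapped in every member, so that 0 lay wholly below (against 6.34% of all genes) and 0 wholly above (against 5.58%). The core log2 fold changes had an SD of 0.10, with medians of -0.08 in the 60S and -0.07 in the 40S subunit.

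The member with an unadjusted p under 0.05 was Rpl3l. It was at 179, 317 and 770 in WT and 205, 144 and 74.7 in A537T, a log2 fold change of -1.43 (SE 0.57, adjusted p = 0.746), which was 0.017 with the muscle score as covariate. Next lowest were Rps27l at -0.51 and Rpl24 at -0.35. The highest were again Rps16 at 0.24 (1297, 1037 and 948 against 1403, 1338 and 1114), followed by Rpl28 at 0.20 and Rpl10a at 0.15. With the muscle score as covariate the median of the members was 0.11. It was -0.26 without 10AF and 0.052 without 12AF, so its sign rests on single WT libraries.

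In KO at 30 weeks limma called 0 of the 82 tested members, against 0% of 14729 genes, and edgeR and DESeq2 called 0 members, with 1.93% of all genes called by DESeq2. At an unadjusted p under 0.05, 2 members were lower (2.44%, against 5.41% of all genes) and 1 was higher (1.22%, against 5.56%) by limma. At that p edgeR and DESeq2 each gave 2 members, among 1752 and 1632 of the 14729 genes. The median was 0.020, with 39 members lower and 43 higher, against -0.0067 over all genes and 0.018 in the other short mRNAs, and after quantile normalization it was 0.082, with 66 higher. Groups did not overlap in 4 lower members (4.88%, against 8.41%), Rpl28, Rplp2, Rpl13a and Rpl36al, and in 1 higher member (1.22%, against 7.92%), Rps27.

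The 3 members with an unadjusted p under 0.05 were Rpl28, Rplp2 and Rps27. Rpl28 of the large subunit was at 1764, 1919 and 2049 in WT and 1540, 1641 and 1526 in KO, a log2 fold change of -0.28 (SE 0.097, adjusted p = 0.407). Rplp2 of the stalk was at 1464, 1671 and 1566 in WT and 1257, 1390 and 1357 in KO, a log2 fold change of -0.23 (SE 0.097, adjusted p = 0.451). Rps27 was at 2079, 1751 and 1670 in WT and 2181, 2773 and 2267 in KO, a log2 fold change of 0.39 (SE 0.14, adjusted p = 0.410), with 5AF the highest. All 3 kept their sign after each scaling and in a fit that took the seminal vesicle score as a covariate. Their groups did not overlap, so leaving out 1 library could not turn their sign and says nothing about stability. Rps27rt, whose reads are shared with Rps27, had 0.44, Rpl39 0.22 and Rpl37 -0.22.

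A fit with the seminal vesicle score among its terms gave the members a median of 0.20. Without 4AF and 6AF, the KO libraries that hold this RNA, the median was 0.22, with 74 of 82 members higher than in WT. The latter fit rests on 5AF alone, which is assumed to vary like the WT libraries. The fit with the score leans on 5AF too, the only KO library here with a seminal vesicle share as low as in WT. Both medians are therefore not separate results. Without 5AF the median was -0.097. The direction of the members in KO at 30 weeks therefore differed between 5AF and the other KO libraries.

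In A537T at 30 weeks limma called 0 of the 82 tested members, against 0% of 14789 genes, and edgeR and DESeq2 called 0 members, with 3.19% of all genes called by DESeq2. At an unadjusted p under 0.05, 0 members were lower (against 6.28% of all genes) and 0 higher (against 7.35%) by limma, and edgeR and DESeq2 each gave 0. The median was -0.12, with 72 of 82 members lower, against -0.0052 over all genes and -0.014 in the other short mRNAs, and after quantile normalization it was -0.025, with 51 lower. Groups did not overlap in 3 lower members (3.66%, against 9.4%), Rpl37, Rpl11 and Rpl36al, and in 0 higher ones (against 9.18%). Core medians were -0.13 in the 60S and -0.11 in the 40S subunit.

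The smallest p belonged to Rpl37 of the large subunit, at 1821, 1732 and 1753 in WT and 1366, 1699 and 1018 in A537T, a log2 fold change of -0.41 (SE 0.18, adjusted p = 0.377). Rpl28 was at 1793, 1949 and 2088 in WT and 1381, 2095 and 1161 in A537T (-0.37, SE 0.21, adjusted p = 0.461), with 8AF above all WT libraries. Rps28 had -0.31, while Rps27 had 0.20, Rpl39 0.11 and Rps27l 0.077. Without 8AF, the library that lacks seminal vesicle RNA, limma called 1207 of the 14789 genes, among them 4 members lower, Rpl5, Rpl13a, Rpl28 and Rpl37. The member median was then -0.23. At an unadjusted p under 0.05, 39 members were lower and 0 higher, against 1950 genes lower and 1986 higher. Without 7AF and 9AF, which hold it, the median was 0.11, with 72 members higher and 10 lower, in a fit that rests on 8AF alone, assumed to vary like the WT libraries. A fit with the seminal vesicle score as covariate gave a median of 0.084, and 0.084 for Rpl28. It leans on 8AF as well, the only A537T library here with a share of these genes as low as in WT. The share of plasma and B cell genes was 0.025 to 0.110% in the A537T libraries and 0.011 to 0.017% in WT at this age, and its part in these values was not tested.

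**Figure D4:**
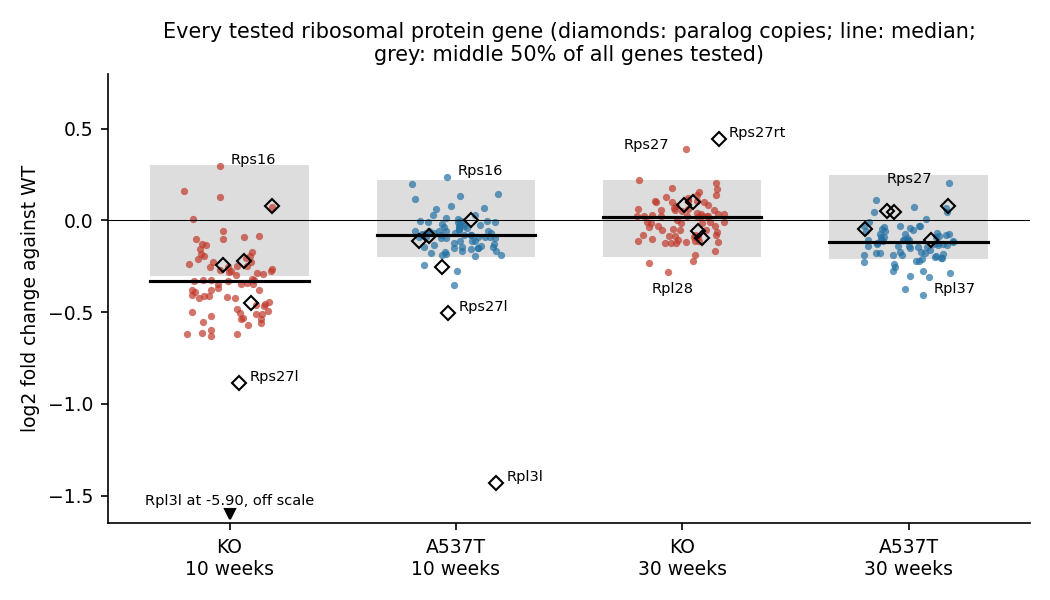
log2 fold change of every tested member against WT in the 4 comparisons, with diamonds for copies, a line for the members' median and a grey box for the middle 50% of all genes tested. The medians are -0.33, -0.080, 0.020 and -0.12, most members lie within the grey box except in KO at 10 weeks, and the value of Rpl3l at -5.90 is drawn at the lower edge.

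The effect of each line was then compared between ages. In KO the effect at 30 weeks minus that at 10 weeks had a median of 0.31 over 82 members, 74 of which were above 0, against 0.031 over all genes. limma called 0 of these differences, as it called 0% of all genes, and 10 members had an unadjusted p under 0.05, 9 of them above 0, against 12.1% of all genes. The smallest p was that of Rps27, with a difference of 0.66 (SE 0.23, adjusted p = 0.321), followed by Rps25 with 0.73 (SE 0.26, adjusted p = 0.329). Rpl28 was the only one of the 10 below 0, at -0.35. Scaled to the same total, the median of the members was 0.087 and that of all genes -0.19, with 61 members above 0 and 2 at an unadjusted p under 0.05, of which 0 were above 0. Without 10AF the median was 0.51 and without 12AF 0.18.

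In A537T the difference between ages had a median of -0.057, with 28 of 82 members above 0, against -0.0045 over all genes. limma called 0 members (0% of all genes), and 1 member, Rpl28 at -0.57 (SE 0.26, adjusted p = 0.413), had an unadjusted p under 0.05, against 12.1% of all genes. Without 8AF limma called 382 of the 14292 genes, of which 1 was a member, Rpl28, at -0.81. The median lay between -0.18 without 12AF and 0.13 without 10AF, and was above 0 also without 1AF and without 9AF.

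By role, the stalk proteins Rplp0, Rplp1 and Rplp2, which recruit the translation factors, lay apart in KO at 10 weeks. Rplp0 was at 3955, 6032 and 6201 in WT and 4155, 4346 and 4129 in KO (-0.33, SE 0.20, adjusted p = 0.383). Rplp1 was at 2218, 3225 and 3880 in WT and 2011, 2296 and 1964 in KO (-0.54, SE 0.22, adjusted p = 0.244). Rplp2 was at 1355, 1303 and 1052 in WT and 1181, 1434 and 1426 in KO, a log2 fold change of 0.13. Rplp1 was below and Rplp2 above 0 under every scaling, while Rplp0 was at 0.0084 after quantile normalization, and the differences between these 3 members were not tested. In A537T at 10 weeks their log2 fold changes were -0.057, -0.039 and -0.020, in KO at 30 weeks -0.078, 0.036 and -0.23, and in A537T at 30 weeks -0.21, -0.11 and -0.28, in the order Rplp0, Rplp1 and Rplp2. The 3 values of A537T at 10 weeks turned above 0 after scaling to the same total and after quantile normalization, as did, after the latter, Rplp0 in KO and Rplp1 in A537T at 30 weeks.

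Rpl5 and Rpl11 bind the 5S rRNA and, when ribosome assembly is disturbed, the p53 regulator Mdm2. Their medians were -0.19, -0.020, -0.14 and -0.26 in KO and A537T at 10 weeks and KO and A537T at 30 weeks. Rpl11 was at 1394, 1770 and 1777 in WT and 1281, 1361 and 1387 in KO at 10 weeks, a log2 fold change of -0.29 (SE 0.14, adjusted p = 0.294) without overlap. It was at 2092, 1971 and 1949 in WT and 1691, 1941 and 1539 in A537T at 30 weeks, a log2 fold change of -0.22 (SE 0.11, adjusted p = 0.417). In both comparisons all 3 mutant libraries lay below the WT libraries. Rpl5 had -0.087, 0.070, -0.19 and -0.30 in the same order of comparisons.

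A list of 10 genes that are mutated in Diamond-Blackfan anaemia, an inherited failure of red cell formation, does not hold all genes known for the disease. It had medians of -0.31, -0.073, 0.062 and -0.14, with 10, 9, 4 and 8 of 10 lower than in WT. Rps19, the gene most often mutated there, had log2 fold changes of -0.18, -0.010, 0.061 and -0.092. Rps6, the substrate of the S6 kinases, was at 3250, 4149 and 4394 in WT and 3417, 3474 and 3324 in KO at 10 weeks (-0.20, SE 0.15, adjusted p = 0.480, but 0.017 scaled to the same total and 0.072 after quantile normalization), and had -0.029, 0.026 and -0.13 in the other comparisons. Rps3, which lies where the mRNA enters the small subunit, had -0.24, -0.14, -0.089 and -0.11. Rps27a, which is made as a fusion with ubiquitin, had -0.35, -0.073, 0.028 and -0.11.

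Rpl10a and Rps25 have been linked to the translation of selected mRNAs. Rps25 was at 1448, 2200 and 2771 in WT and 1423, 1369 and 1411 in KO at 10 weeks, a log2 fold change of -0.56 (SE 0.23, adjusted p = 0.254), and at 2120, 1918 and 1868 against 2055, 2339 and 2251 at 30 weeks, where it was 0.17 (SE 0.10, adjusted p = 0.558). Rpl10a had -0.14, 0.15, -0.079 and -0.21. Rpsa, which is also known as a laminin receptor, had -0.28, -0.038, 0.018 and -0.086. Of the most abundant members by share of counts, Rpl10, Rpl4, Rplp0, Rpl5 and Rpl3, Rpl10 was at 4294, 7016 and 6955 in WT and 4601, 4494 and 4329 in KO at 10 weeks (-0.41, SE 0.22, adjusted p = 0.330). Rpl4, which lines the exit tunnel, had -0.19 and Rpl3, which lies near the catalytic centre, -0.23 in that comparison, and 10AF lay below every KO library for Rpl10 and inside the KO range for Rpl4 and Rpl3.

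The ratio of a copy to its parent in a library hardly depends on how the library is scaled. Of 24 ratios (6 pairs in 4 comparisons), groups overlapped in 21, and the exact permutation test over libraries, which cannot go under p = 0.1 with 3 against 3, gave no adjusted p under 0.655. Rps27l was 26.9%, 23.4% and 26.1% of Rps27 in WT at 30 weeks and 19.97%, 21.8% and 20.4% in KO (exact permutation p = 0.1), so that all KO libraries lay below the WT libraries. The copy itself was not lower there, with a log2 fold change of 0.098 and overlapping groups. Its parent Rps27, named above for its value, had 0.39 without overlap. At 10 weeks it was 20.98%, 37.7% and 35.5% in WT and 21.4%, 18.5% and 19.5% in KO, and 29.1%, 21.1% and 17.95% in A537T against 20.4%, 36.75% and 34.6% in WT as tabled there, so that 10AF lay inside the range of both mutants. Rpl3l was 5.11%, 6.63% and 18.2% of Rpl3 in WT at 10 weeks and 0.0269%, 2.44% and 0% in KO (exact permutation p = 0.1), and 0 to 0.131% at 30 weeks. These WT libraries are ordered by Rpl3l as they are by their skeletal muscle share.

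Among the other copies, Rps27rt was 0.979%, 1.08% and 1.21% of Rps27 in WT and 1.365%, 1.21% and 1.60% in KO at 10 weeks. It was the 1 ratio higher without overlap, which holds with a pseudocount of 1 or 8 added to both counts but not without one, since 12AF and 14AF then had 1.210% and 1.209%. At 30 weeks it lay between 0.844 and 1.725%, and the groups overlapped. Rpl36al exceeded its parent in every library, at 117 to 168% of Rpl36a. Rpl22l1 was 13.7 to 23.6% of Rpl22 over all libraries, with 12AF the highest. Rpl7l1, a copy of Rpl7 in the nucleolus, was 8.73 to 15.2% of Rpl7.

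**Figure D5:**
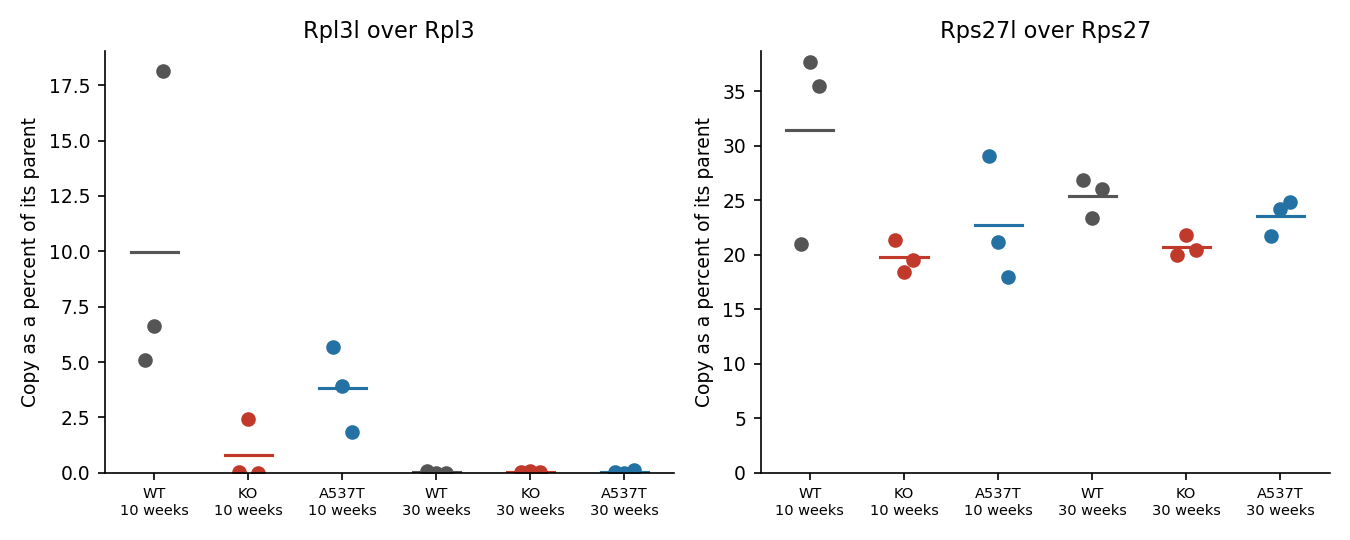
Rpl3l as a percent of Rpl3 and Rps27l as a percent of Rps27 in each of the 18 libraries (normalized counts), with the group mean as a line. Rpl3l is at most 0.131% at 30 weeks, and Rps27l lies at 19.97 to 21.8% in KO and 23.4 to 26.9% in WT at that age. In KO at that age the log2 fold change is 0.098 for Rps27l and 0.39 for its parent Rps27.

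Other genes of the pathway were counted by list. Of 21 other TOP mRNAs, which encode translation factors and related proteins, 18, 10, 13 and 18 were lower than in WT in KO and A537T at 10 weeks and KO and A537T at 30 weeks, with medians of -0.17, 0.0023, -0.033 and -0.084. Eef1a1, the elongation factor that brings tRNA to the ribosome, had -0.23, 0.047, -0.098 and -0.24, and Eef2, which moves it on, had -0.18, -0.069, -0.21 and -0.26. limma called 0 genes of this list in each comparison.

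Of 41 ribosome biogenesis factors, 33, 24, 19 and 21 were lower, with medians of -0.20, -0.023, 0.016 and -0.0098, and 7, 1, 0 and 1 were lower at an unadjusted p under 0.05 (against 11.5%, 3.67%, 5.41% and 6.28% of all genes), and 0, 0, 0 and 1 higher. Ncl, the nucleolar protein nucleolin, had 0.058, -0.032, 0.18 and 0.079, and Mdn1, an AAA protein that remodels the 60S precursor, had -0.064, 0.22, -0.055 and 0.088. The 18 genes of RNA polymerase I and its factors, which make the rRNA precursor, had medians of -0.23, -0.13, 0.054 and -0.0010, with 4, 1, 0 and 0 lower and 1, 1, 0 and 0 higher at an unadjusted p under 0.05. Of its most abundant genes, Ubtf had 0.23, -0.0016, 0.041 and 0.037. Taf1d, a subunit of the selectivity factor SL1, had -0.67 (SE 0.22, adjusted p = 0.198) and -0.56 at 10 weeks, both without overlap, and 0.23 and 0.36 at 30 weeks. The 11 tested regulators of ribosomal protein synthesis had medians of -0.00019, 0.0052, 0.0096 and -0.077. Eif4ebp2, a 4E-BP, was at 2676 ± 367 in WT and 1889 ± 105 in KO at 30 weeks, a log2 fold change of -0.49 (SE 0.12, adjusted p = 0.386) without overlap, and had 0.43 (SE 0.21, adjusted p = 0.300), also without overlap, in KO at 10 weeks. Eif4ebp1, another 4E-BP, was at 509 ± 146 in WT and 271 ± 57.9 in KO at 10 weeks, a log2 fold change of -0.88 (SE 0.27, adjusted p = 0.188) without overlap, and had -0.13, -0.66 and -0.69 in the other comparisons. It was named after its values were seen. Larp1 had -0.027, 0.056, -0.13 and -0.077, and Larp4 had -0.00019, -0.18, 0.056 and 0.099. limma called 0 of the genes in these 3 lists.

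The core members were also split by transcript length. In KO at 10 weeks the 17 core members of at most 500 bases had a median of -0.38 and the 16 of over 1000 bases -0.23. A537T of that age had medians of -0.10 and -0.06. The later KO comparison had 0.04 and -0.06, and the later A537T comparison -0.14 in both classes. The difference between length classes was not tested.

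Processed pseudogenes resemble their parents and can take or give reads. The tables hold 289 entries named as pseudogenes of members, of which 187 to 196 were at 0 in every library of a table and 16 to 18 had a mean normalized count of at least 10. Together they held 0.617 to 0.764% as many counts as the members. Relative to the parent they were largest for Rpl14 (9.04%) and Rps23 (4.81%). Adding them to their parents left the number of called members at 0 in all 4 comparisons, with medians of -0.33, -0.081, 0.020 and -0.12.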

How the data were processed

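RNA-seq of the prostate gave 18 libraries, 3 in each of 6 groups. Per the labels and methods, the authors trimmed reads with Trim Galore 0.4.1 and cutadapt 1.18 and used STAR 2.7.3a, Salmon and DESeq2 1.26. The signal values they deposited are counts per gene after division by the size factor of DESeq2, in 4 tables of 6 libraries, in which the WT libraries of an age appear both times. The columns carry library labels without genotype and were assigned to groups through group means that the study lists and the WT libraries that tables share. Dividing by the value of 1 read returned whole reads (within 0.1) for at least 99.99% of values. The reads so recovered for a WT library differed between its tables in 53.6 to 64.05% of counted genes. Over the members the median difference was 0.454 to 2.20%, and it reached 8.56% in single abundant members.

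Genes with a mean of at least 10 were tested with limma 3.58.1 in R 4.3.3 (log2 of the value plus 1, mean trend, Benjamini-Hochberg over all genes, threshold 0.05). The effects at both ages were compared by an interaction term. edgeR 4.0.16 and DESeq2 1.42.0 on recovered reads called 0 genes and 90 to 715 genes. Other alternatives were the pseudocount, the minimum mean, scaling, a tissue score as covariate and leaving out libraries. The scripts were tested on simulated data. Lengths came from GENCODE M21 (55193 of 55469 identifiers matched). Per the study's methods, replicates are biological, from 3 mice of each line. The floor for a count of 0 covers counting error only, while the SEs come from limma and reflect the spread between libraries. Members, lists and the genes named were chosen with earlier results of these data known. The genes named were the stalk proteins, copies and parents, the members with the largest share of counts, the 3 highest and 3 lowest of each comparison, the smallest p, a set of members with known roles and the 2 most abundant genes of other lists, while members named for not overlapping, for a p under 0.05 or for a changed call were chosen after their values were seen.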

Additional observations from a re-analysis of the deposited data

How the results depend on the processing

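In the comparisons of each line with WT at each age, the number of called members was 0 under every alternative that kept all libraries. It was also 0 without the libraries with seminal vesicle RNA, an alternative chosen after seeing the data, but this leaves 1 mutant library (5AF or 8AF) and says nothing about stability. Leaving out 1 library gave 0 to 50 called members in KO at 10 weeks (50 without 10AF), 0 in A537T at 10 weeks and KO at 30 weeks, and 0 to 4 in A537T at 30 weeks (4 without 8AF). For the difference between ages in A537T it gave 0 to 1 (1 without 8AF, where 382 of 14292 genes were called), and in KO 0. The median of the members moved in KO at 30 weeks to 0.20 with the seminal vesicle score as covariate and to 0.22 without the libraries holding that RNA. In A537T at 30 weeks these medians were 0.084 and 0.11. Each of these fits leans on the single mutant library without that RNA, 5AF or 8AF. The median difference between ages in KO was 0.087 after scaling to the same total, and 0.18 to 0.51 with 1 library left out. The cause of these shifts was not tested. Scaling to the same total or quantile normalization turned the sign of 8 of 33 named genes in KO and 20 of 33 in A537T at 10 weeks, and of 9 and 11 of 32 at 30 weeks, none of which passed the test. Over all genes, limma called 936 without 5AF in KO at 30 weeks and 49 without 10AF in A537T at 10 weeks, against 0 with all libraries. No paired analysis was possible because the columns of the tables carry no replicate numbers. With 3 libraries in a group, of 6569642 to 11225281 reads, the spread between libraries and not the depth limits the abundant members, while Rps27rt, Rpl39l, Rpl10l and, at 30 weeks, Rpl3l are limited by their counts.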
